A study of Mus musculus with 2 samples.

Results

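The enzymes that build triglyceride were examined in the epididymal white adipose tissue of mice on 2 diets. The genes were Gpam, Agpat1, Agpat2, Agpat3, Lpin1, Lpin2, Dgat1, Dgat2, Mogat1 and Mogat2. They were taken by name as enzymes of this pathway, with earlier results of these data known, and every probe set annotated with 1 of these symbols and no other was taken. This gave 21 probe sets for the 10 genes, out of 34945 probe sets with a single symbol that named 18193 genes. Both tissue samples came from male C57BL/6 mice kept on regular food until the diets began at 9 weeks of age. One sample was labelled as from a mouse on a normal chow diet and the other as from a mouse on a high-fat diet for 7 weeks, and each was measured on 1 Affymetrix mouse array. The labels give no duration for the chow diet and do not say further whether RNA of several animals was pooled.

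With 1 array per diet there was no replicate and no test of the diet, so "higher" and "lower" describe these 2 samples only. Intensities are on the linear scale as deposited, in arbitrary units, and each difference is the log2 value on the high-fat diet minus that on chow. A floor for weak signal lay at the 40th percentile of each array, 28.6 for chow and 27.9 for the high-fat diet, and lower values were set to the floor ahead of the log2 step. The probe set with the highest mean log2 intensity stood for its gene. Single probe sets scattered around the mean difference of their gene with a pooled SD of 0.37 at mean intensities under 100, 0.29 between 100 and 400 and 0.20 from 400 upwards, which covers probe error but no difference between animals. These classes were formed by the mean over the probe sets of a gene, whereas each enzyme was placed by its brightest probe set.

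Fat cells store energy as triglyceride, which is made by adding fatty acids one after another to glycerol 3-phosphate. The mitochondrial glycerol-3-phosphate acyltransferase encoded by Gpam adds the first chain and gives lysophosphatidic acid. Acylglycerophosphate acyltransferases, the Agpat enzymes, add the next and give phosphatidic acid. Lipins remove the phosphate to leave diacylglycerol, and the diacylglycerol acyltransferases Dgat1 and Dgat2 add the last chain. Monoacylglycerol acyltransferases, the Mogat enzymes, reach diacylglycerol by another route, from monoacylglycerol, a route best known from the absorbing cells of the small intestine.

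In the brightest probe set of each gene, most of the pathway had similar intensities on both arrays, and the 2 genes farthest from 0 were both monoacylglycerol acyltransferases. The difference was within 0.2 log2 units in 8 of the 10 genes, beside 6514 of all 14066 measured genes. Over single probe sets it was within 0.2 in 9 of the 19 measured for these genes and in 10822 of all 24240. Most of the 10 genes were in the brightest class, with a probe SD of 0.20, whereas all measured genes include dim ones, with 0.37 under 100. Genes of like brightness were not compared. Mogat2 was 2.37-fold higher on the high-fat diet, and Mogat1 was 1.51-fold lower. Of the 10 genes 6 were higher and 4 lower, beside 6585 higher and 7439 lower (46.8% higher) among all measured genes. Of all measured genes, 1.17% differed by 2-fold or more upwards and 1.35% downwards, against 1 of the 10 higher and 0 lower. At 1.5-fold or more the shares of all genes were 5.82% higher and 6.4% lower, against 1 of the 10 in each direction. When the arrays were centred on reference genes, the split of all 2-fold genes moved from 164 higher and 190 lower to 124 and 256. The median difference of the 10 genes was 0.07, beside -0.02 over all measured genes, but it was -0.0025 after quantile normalization and -0.00073 with reference gene centring, so it carried no direction.

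**Figure D1:**
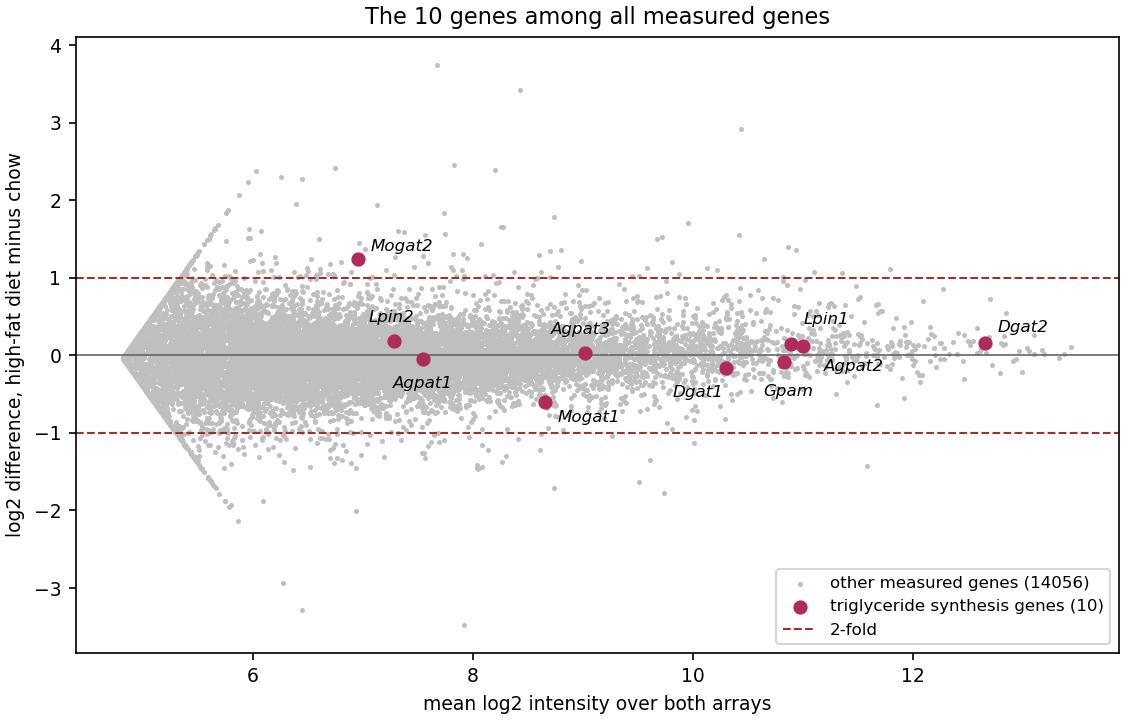
Difference between the diets (vertical axis, log2, high-fat diet minus chow) against mean log2 intensity over both arrays (horizontal axis) for all other measured genes (grey) and the 10 triglyceride synthesis genes (red), with dashed lines at 2-fold. Mogat2 lies above the upper line, at 1.24, Mogat1 at -0.60, and the other 8 genes lie within 0.2 of 0.

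The labelled tissue was checked against its markers. Of the 10 mature adipocyte markers listed, 8 had a probe set of their own and all 8 were above the floor on both arrays, with a summed intensity of 43294.8 on chow and 45590.9 after high-fat feeding. Of 8 epididymis and testis genes with a probe set, 0 were above the floor on both arrays and 5 were above it on 1. In whole tissue, fewer cells of a type and less RNA per cell cannot be told apart.

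Every probe set is accounted for by its state. Of the 21 probe sets, 18 were above the floor on both arrays, 1 on chow only and 2, both of Lpin2, on neither. Of the 19 measured probe sets 11 were higher and 8 lower on the high-fat diet, with 1 at 2-fold or more in each direction. Of all 24240 measured probe sets with 1 symbol, 47.2% were higher. At 2-fold or more, 1.23% of these were higher and 1.35% lower. The 2-fold probe sets belonged to Mogat2 and Gpam.

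**Figure D2:**
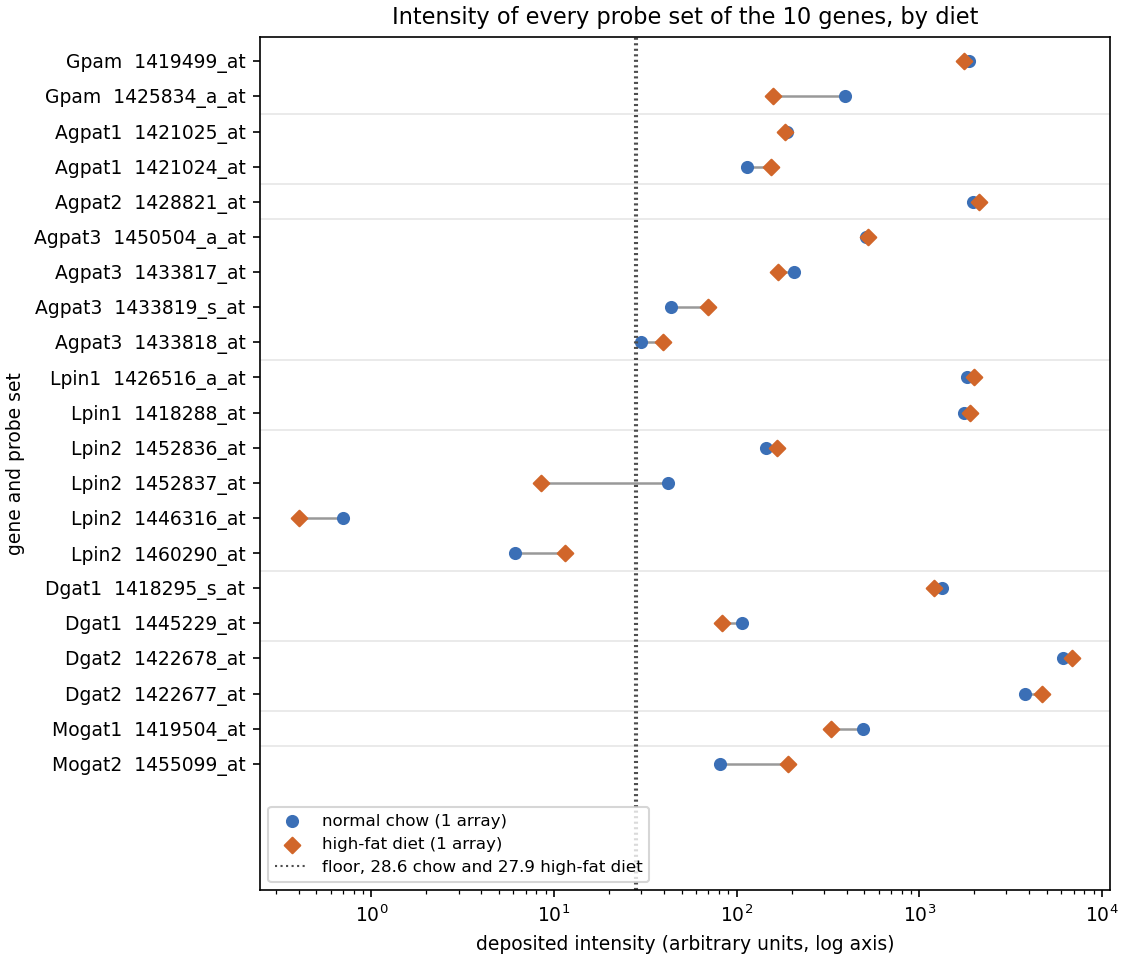
Deposited intensity (horizontal axis, arbitrary units, log axis) of each of the 21 probe sets (vertical axis) on the chow array (circles) and the high-fat diet array (diamonds), with dotted lines at the floors of 28.6 and 27.9. The widest gaps above the floor are those of Gpam probe set 1425834_a_at, from 391.3 to 157.3, and of Mogat2, from 80.7 to 191.1.

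Gpam, the first acyltransferase, gave different sizes of difference in its 2 probe sets. Probe set 1419499_at read 1879.2 on chow and 1764.5 after high-fat feeding, and probe set 1425834_a_at read 391.3 and 157.3. Both were lower on the high-fat diet, but the first was nearly level and the other was well apart. The difference was -0.09 in the brighter probe set, less than 1 probe SD, and -1.31 in the dimmer one, which was 2.49-fold lower. The 2 differences lay 1.22 log2 units apart, and among 3129 genes with 2 probe sets that cleared the floor on each array, 1.89% had a gap as wide, with a median gap of 0.27. The level of Gpam on the high-fat diet therefore depended on the probe set, from 1.07-fold to 2.49-fold lower.

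Gpam has 2 annotated transcription starts in RefSeq, and the windows around them are shown because the 2 probe sets differed. Each window runs from 250 bases before to 50 bases after a start, on the minus strand of build GRCm38.p6, printed 5′ to 3′. The table in use links neither probe set to a start, and whether the starts bear on the difference between the probe sets was not tested. Capitals mark the searched motifs that were found, a CCAAT box read on the opposite strand in the first window and a GC box on the opposite strand in the next.
Gpam start window chr19:55127189-55127488: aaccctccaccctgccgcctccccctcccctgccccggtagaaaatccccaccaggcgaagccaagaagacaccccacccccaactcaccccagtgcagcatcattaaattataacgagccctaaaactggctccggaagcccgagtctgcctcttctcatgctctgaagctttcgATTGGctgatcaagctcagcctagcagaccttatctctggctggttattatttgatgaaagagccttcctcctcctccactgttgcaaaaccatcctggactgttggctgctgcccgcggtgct
Gpam start window chr19:55099428-55099727: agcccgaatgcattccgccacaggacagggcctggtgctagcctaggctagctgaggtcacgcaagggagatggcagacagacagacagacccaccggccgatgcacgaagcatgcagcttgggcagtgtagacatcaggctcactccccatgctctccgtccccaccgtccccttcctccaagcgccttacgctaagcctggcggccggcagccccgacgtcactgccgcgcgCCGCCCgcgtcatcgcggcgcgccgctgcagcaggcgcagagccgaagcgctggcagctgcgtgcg
No searched motif overlapped another in these windows. The first window was 55.7% G and C and the other 68%. Promoter windows were found for 7 of the 10 genes, 11 windows in all, and were searched on both strands for 4 motifs. The GC box GGGCGG was in 6 of the 11 windows and in 35.7% of all 32851 windows of this length, and the CCAAT box, spelled CCAAT, was in 4 of 11 and in 37.4% of all. The palindromic E box CACGTG, a core shared by ChREBP and SREBP sites, was in 1 window, of Lpin2, and in 7.15% of all. The TATA box TATAAA, found in 13.6% of all windows, was in 0 of the 11. These matches are letters in a window and not shown to be sites.

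The Agpat genes, which add the next chain, were close to level in their brightest probe sets. Agpat2, the isoform whose loss causes congenital lipodystrophy, read 1969.2 on chow and 2134.1 after high-fat feeding in its only probe set. That was 1.08-fold higher as deposited, within 1 probe SD, and -0.04 in log2 after quantile normalization. Agpat1, a broadly expressed isoform, read 189.7 and 183.2 in probe set 1421025_at and 114.4 and 154.2 in probe set 1421024_at. The differences were -0.05 and 0.43, so the probe sets of Agpat1 did not share a direction.

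Agpat3, a member of the same family, had 4 probe sets, which also did not share a direction. The brightest, 1450504_a_at, read 512.8 on chow and 523.3 after high-fat feeding, and 1433817_at read 205.6 and 168.1. The dimmer pair read 43.5 and 69.7 in 1433819_s_at and 29.8 and 39.3 in 1433818_at, the last just above the floor on chow. Their differences were 0.03, -0.29, 0.68 and 0.40, in the same order, a range of 0.97. Of 485 genes with 4 such probe sets, 13.4% had a range as wide. The difference of the brightest one turned to -0.04 with reference gene centring.

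Lpin1, the main lipin of fat tissue and a phosphatidate phosphatase that also acts as a transcriptional coactivator, was level with good agreement between its probe sets. Probe set 1426516_a_at read 1817.2 on chow and 2003.3 after high-fat feeding, and probe set 1418288_at read 1767.7 and 1895.4. The high-fat diet value was the higher one in both. The differences of 0.14 and 0.10 were 0.04 apart, a gap as wide or wider being present in 91.9% of genes with 2 such probe sets. The brighter difference was less than 1 probe SD.

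Lpin2, a lipin of liver and other tissues, was read by 4 probe sets of uneven strength. Probe set 1452836_at read 145.7 on chow and 166.3 after high-fat feeding, a difference of 0.19. Probe set 1452837_at read 42.3 on chow and 8.5, below the floor, after high-fat feeding, and so was at least 1.52-fold lower. The remaining probe sets were below the floor on both arrays, 1460290_at at 6.1 and 11.5 and 1446316_at at 0.7 and 0.4. Lpin2 was slightly higher in its brightest probe set, within 1 probe SD, and lower in the only other one measured.

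The diacylglycerol acyltransferases, which make the final product and belong to unrelated protein families, went in opposite directions by small amounts. Dgat1 read 1336.9 on chow and 1197.3 after high-fat feeding in probe set 1418295_s_at, and 107.1 and 82.8 in probe set 1445229_at. Both were lower on the high-fat diet, by 1.12-fold and 1.29-fold. Dgat2 read 6099.5 and 6819 in probe set 1422678_at, and 3768.5 and 4719.8 in probe set 1422677_at. Both were higher on the high-fat diet, by 1.12-fold and 1.25-fold. The brightest probe sets of Dgat2 and Dgat1 differed by 0.16 and -0.16, less than 1 probe SD each, and their differences were 0.32 apart. Whether signals as bright as those of Dgat2 were compressed was not tested.

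The monoacylglycerol acyltransferases went in opposite directions by larger amounts. Mogat2, the enzyme of fat absorption in the intestine, read 80.7 on chow and 191.1 after high-fat feeding in its only probe set, 1455099_at. Mogat1 read 494.9 on chow and 327.4 after high-fat feeding in its only probe set, 1419504_at. Mogat2 was thus the higher and Mogat1 the lower on the high-fat diet, with both genes above the floor on both arrays. The difference of 1.24 for Mogat2 was 4.31 times the probe SD at its brightness, and 0.476% of all measured genes were as far or farther in that direction. The difference of -0.60 for Mogat1 was 2.91 times the probe SD, and 6.11% of measured genes were as far or farther. Because the mean intensity of Mogat1 lay close to the edge of a brightness class, the SD of 0.32 over all genes was also used, which gave 1.88 SDs for Mogat1 and 3.92 for Mogat2. The differences of the 2 genes were 1.84 log2 units apart. With 1 probe set each, neither value could be checked against another probe set of the gene.

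Markers of other cell types were read beside the Mogat genes, with 46.8% of all measured genes higher on the high-fat diet. Of 7 small intestine genes, 5 (Fabp2, Vil1, Apoa4, Lct and Cdx2) were below the floor on both arrays, Mttp differed by 0.03 and Apob by -0.88, with 0 genes at an intensity of 0. The summed intensity of the 7, which includes those below the floor, was 180.2 on chow and 117.5 after high-fat feeding. Of 6 measured liver genes 5 were lower on the high-fat diet, 3 of them 2-fold or more, with a median of -0.90. Apoa2 read 214.2 on chow and 13.1 after high-fat feeding, Ttr 108.7 and 28.6, and Apoa1 83.5 and 18.3. Apoa1 and Apoa2 were under the floor after high-fat feeding, so their differences are bounds. Alb read 141.5 and 121.5, and Tat, which was higher, 33.2 and 40. The sum over 7 liver genes was 9336.8 and 7783.7. Most of that sum was Cyp2e1, a cytochrome gene that fat also expresses, at 8752.7 and 7561.1. Fgb, which encodes a fibrinogen chain of hepatocytes, was at 3 and 1.1. Of 6 mesothelial genes 5 were lower, 4 of them 1.5-fold or more (6.4% of all measured genes were), with a median of -0.72 and sums of 1372.6 and 918.3. All 10 macrophage genes were within 2-fold, 5 higher and 5 lower, with sums of 7075.7 and 7107.2. Of 8 fibroblast and adipocyte progenitor genes 7 were higher (median 0.28), with sums of 8419.8 and 11017.3. Of 8 genes of lipid-associated macrophages 5 were higher, 1 of them 2-fold or more, and 3 lower, with a median of 0.30 and sums of 9994.1 and 10310.3. Most of these sums was Lpl, at 9272.1 and 9417.9. The 2-fold gene, Atp6v0d2, read 29.3 on chow, just above the floor, and 60.3 after high-fat feeding, with 0.36 in its other probe set. Trem2 was among those lower, at -0.72. Endothelial genes had 5 of 7 higher (median 0.05, sums of 1924.6 and 1949.8). Skeletal muscle genes had 1 of 3 higher (median -0.22, sums of 1107.8 and 896.4). Brown adipocyte genes had 3 of 5 higher (median 0.33, sums of 282.8 and 357.8), and 3 of the 5 cleared each floor. That median was the value of Cox7a1, a bound, since this gene read 14.5 on chow, under the floor, and 36 after high-fat feeding. Ucp1, which these sums include, was too weak to count as measured, with 4.2 on chow and 4.5 after high-fat feeding. The part of any of these cell types in the values of Mogat1 and Mogat2 was not tested.

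Mogat2 and Dgat2 belong to the same protein family and are neighbouring genes, with 0 genes between them in the RefSeq gene table of GRCm38.p6. Both were higher on the high-fat diet, by 1.24 and 0.16 log2 units. The value of Dgat2 was less than 1 probe SD and was 0.04 after quantile normalization. Mogat1, the other monoacylglycerol acyltransferase, was lower, at -0.60. Whether the position or the family of these genes bears on their values was not tested.

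**Figure D3:**
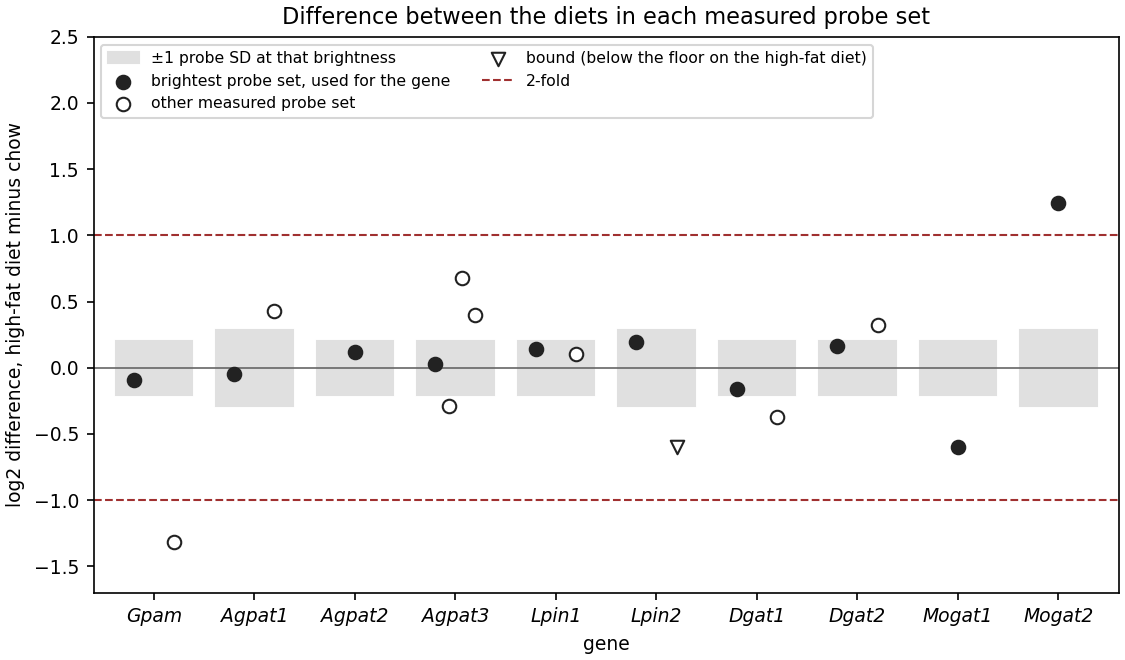
Difference between the diets (vertical axis, log2, high-fat diet minus chow) in each of the 19 measured probe sets of the 10 genes (horizontal axis), with filled circles for the brightest probe set of a gene, open circles for the others and a triangle for a bound. Grey boxes span 1 probe SD either side of 0 at the brightness of the brightest probe set of the gene, which may not apply to its dimmer ones. Dashed lines mark 2-fold. Mogat2 and the dimmer probe set of Gpam lie outside the lines, at 1.24 and -1.31.

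The steps around the pathway were described from lists of other genes, each by its count past 2-fold and its median. The shares and the median of all genes given above stand beside these values, with 46.8% of all measured genes higher. Genes that supply glycerol and glycerol 3-phosphate had 4 of 5 measured members higher, 1 of them 2-fold or more, a median of 0.49 and 1 more gene, Aqp3, below the floor. Aqp7, the glycerol channel of fat cells, read 109 on chow and 222.9 after high-fat feeding, 2.04-fold higher, but it was under 2-fold after quantile normalization, with reference gene centring and in its other probe set, at 0.59. Pck1, the enzyme of glyceroneogenesis, read 1370.1 and 2241.4, 1.64-fold higher, although 1 of its other 2 probe sets differed by -0.20. Aqp9, another glycerol channel, differed by 0.49, and by 1.05 in its other probe set. Gpd1l differed by -0.35, and by -0.05 in its other probe set.

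Genes that activate fatty acids to acyl-CoA had a median of -0.0032 over 7 measured genes, with 0 at 2-fold or more higher and 1 lower. Slc27a2, a very-long-chain acyl-CoA synthetase, read 57.9 on chow and 27 after high-fat feeding, under the floor, at least 2.08-fold lower, but it was no longer 2-fold lower with the floor at the 60th percentile or with a pseudocount of 16 in place of the floor. Slc27a4, a fatty acid transport protein with synthetase activity, differed by 0.43, Acsl3 by -0.27 and Acsl5 by -0.11. No probe set with the single symbol Acsl1 was analysed here.

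Other acyltransferases of the Gpat and Agpat families and their relatives had 9 of 12 measured members lower, 0 of them 2-fold or more, and a median of -0.21. The median was negative under each of the 9 alternative settings, from -0.31 to -0.02. Gpat4, which catalyses the same first step as Gpam at the endoplasmic reticulum, read 374.3 on chow and 242.2 after high-fat feeding, 1.55-fold lower, and its other probe set differed by -0.06. Gpat3, the other enzyme of that step in the endoplasmic reticulum and named here after its value was seen, read 897.6 and 710.2, 1.26-fold lower. Mboat2, a lysophospholipid acyltransferase, read 47.7 and 31.1, and Lpgat1, of the Agpat-related family, was higher at 2236.9 and 2944.4. Gpat2 and Lpcat4 were below the floor on both arrays.

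Partners of the lipins and other phosphatidate phosphatases showed no 2-fold difference among 6 measured genes, with 3 higher and 3 lower and a median of 0.07. Plpp1 and Plpp2, membrane lipid phosphatases, differed by 0.35 and -0.32, and Cnep1r1, a subunit of the phosphatase that acts on lipins, by 0.30. Of the list of further diacylglycerol, wax and sterol acyltransferases, 2 of 7 genes had a probe set with a single symbol. Both were measured, with a median of 0.03. Awat1, Awat2, Dgat2l6, Soat1 and Soat2 had no such probe set, so their level is unknown here. Tmem68, an enzyme of alternative triglyceride synthesis, read 97.7 on chow and 80.2 after high-fat feeding, a difference of -0.28. Lcat, the plasma cholesterol acyltransferase, was above the floor on the high-fat diet only, at least 1.26-fold higher.

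Genes that take phosphatidic acid or diacylglycerol into phospholipid were even, with 8 of 18 higher, 10 lower and a median of -0.02. Pcyt2, of phosphatidylethanolamine synthesis, read 108.1 on chow and 25.7, below the floor, after high-fat feeding, and was the 1 gene at 2-fold or more, a count that fell to 0 with the floor at the 60th percentile and with plain probe sets only. Cds1, which turns phosphatidic acid into CDP-diacylglycerol, read 41.6 and 68.7, 1.65-fold higher, with 0.57 in its other probe set. The diacylglycerol kinases Dgkq and Dgkz differed by 0.47 and -0.44, and the other probe set of Dgkz differed by 0.77.

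Genes of the stored droplet and of its breakdown were also even. The lipid droplet list had a median of -0.01 over 11 measured genes, with 5 higher and 6 lower. Plin5, a droplet protein, read 62.4 on chow and 127.5 after high-fat feeding, 2.04-fold higher, but was under 2-fold with reference gene centring and differed by 0.25 in its other probe set. Plin2, a droplet coat protein, differed by 0.74, Cideb by -0.63 and Hilpda, an inhibitor of lipolysis, by 0.31. The triglyceride hydrolysis list had a median of -0.04 over 10 genes, with 5 higher, 5 lower and 0 at 2-fold or more. Ces1f, a carboxylesterase, read 630.7 and 325, 1.94-fold lower as deposited and 2-fold or more lower with reference gene centring. Abhd5, the coactivator of the first lipase, differed by -0.62 and Mgll, which cleaves monoacylglycerol, by 0.49. Pnpla2, the first lipase, named here after its values were seen, read 4720.2 and 4720.5.

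Transcriptional regulators of lipid synthesis had 11 of 15 members lower and a median of -0.26 that was negative under each alternative setting, from -0.33 to -0.21. Klf15, a factor of the fed and fasted response, read 496.7 on chow and 191.6 after high-fat feeding, and Mlxipl, which encodes ChREBP, read 495.5 and 201.8. These 2 genes were 2-fold or more lower, and Insig1, which holds back SREBP processing and read 333.2 and 771.1, was 2-fold or more higher. With plain probe sets only, 1 gene of this list was 2-fold or more lower. Ppargc1b, a coactivator of SREBP, read 225 and 112.7, just inside 2-fold. Srebf1, which encodes a lipogenic SREBP, differed by -0.50 and Pparg, the main factor of fat cell differentiation, by -0.49. These differences are set beside those of the 10 enzymes without any test of a link between them.

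**Figure D4:**
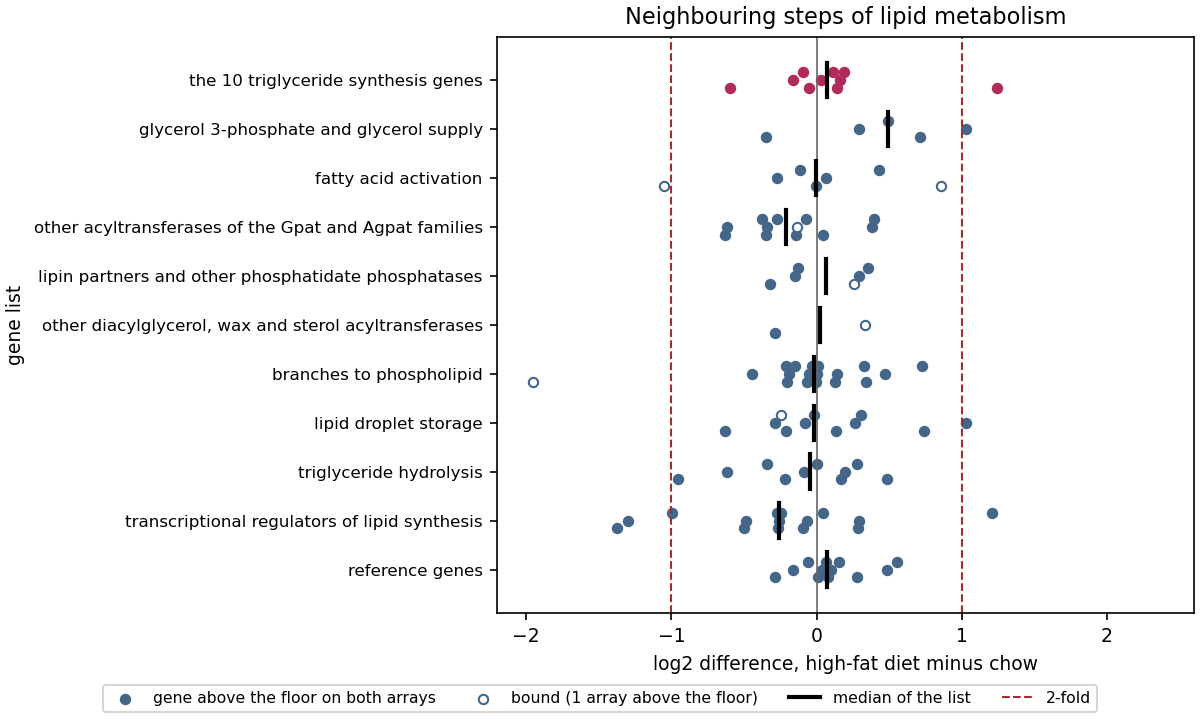
Difference between the diets (horizontal axis, log2, high-fat diet minus chow) of each measured gene (points; open where 1 array was below the floor) in the 10 triglyceride synthesis genes and in each other list (vertical axis), with black bars at the medians and dashed lines at 2-fold. The medians are 0.07 for the 10 genes, which turns slightly negative under 2 of the scalings, 0.49 for glycerol supply, -0.21 for the other acyltransferases and -0.26 for the regulators.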

How the data were processed

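RNA from epididymal fat was measured on 1 array per diet. Per the labels' protocols, biotinylated cRNA was made from 10 µg of total RNA, extracted with Trizol, by the standard Affymetrix procedure. The authors deposited a table of linear intensities, 1 for each of 45037 probe sets on each array. How the probes were summarised and scaled is not stated in the labels or the file. Means after trimming 2% at each end were 99.6 on both arrays, and the medians of log2 intensity differed by -0.03, under the limit of 0.1 for centring, so the deposited scale was kept. A scaling of this kind would remove a difference in overall RNA content. Names came from the 2016 platform annotation: 34945 had 1 symbol, 932 several and 9160 none, and 34741 matched the RefSeq table of GRCm38.p6 by gene ID. No build is named for the probe sets.

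A probe set counted as measured at or above the floor on at least 1 array. The floor, the log2 differences and the counts were computed in Python 3.11.15 with pandas 2.3.3 and tested on simulated data. The named genes were all 10 enzymes and, per list, those 2-fold or more apart plus up to 3 of the largest other differences above the floor on both arrays. The genes, lists and rules were chosen with earlier results of these data known. Precision is limited by having 1 array per diet. Alternatives covered scaling, the floor (another percentile, or a pseudocount of 16 in its place) and the choice of probe set, plain ones being those whose ID has no letter before the ending _at.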

Additional observations from a re-analysis of the deposited data

How the results depend on the processing

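Across the 9 alternatives, 6 of the 10 enzymes kept their direction: Lpin1, Dgat2 and Mogat2 higher, Gpam, Dgat1 and Mogat1 lower. Mogat2 ranged from 1.10 to 1.29 and Mogat1 from -0.67 to -0.57, while Agpat1, Agpat2, Agpat3 and Lpin2 took both directions. With 1 probe set each, the 2 Mogat genes could not change with the choice of probe set. The other floor percentiles also returned their main values of 1.24 and -0.60. Only the scalings and the pseudocount moved the values of the Mogat genes, so their direction was not tested by the other settings. For Gpam, Lpin1, Dgat1 and Dgat2 the other floor percentiles also returned the main values. All measured probe sets of each of these genes shared 1 direction, so the choice of probe set could not reverse it. A pseudocount cannot reverse a direction, so only the scalings could have reversed any of the 6. Of 140 alternative values of the counts and medians, 134 stayed close to the main one (within 1.5 times for counts, within the pooled probe SD of 0.32 for medians). That limit was wider than every main median except the 0.49 of glycerol supply, so a median could change sign and still count as close. The median of the lipin partners did so, being above 0 in 5 settings and below it in 5. Each count of enzymes higher rested on the single probe set of Mogat2. The count of the enzymes' probe sets 2-fold or more lower moved from 1 to 2 with the floor at the 20th percentile and with a pseudocount of 16 in place of a floor, and to 0 with plain probe sets only, since the probe set of Gpam is not plain. Genes 1.5-fold or more lower moved from 1 to 0 with the pseudocount, which shrinks differences by construction, and to 2 with the mean of probe sets, which gave Gpam -0.70. The median of the further diacylglycerol, wax and sterol acyltransferases was 0.41 with the floor at the 20th percentile. Over all genes, the floor at the 20th percentile gave 608 higher and 727 lower at 2-fold, and at the 60th percentile 90 and 66, against 164 and 190. Of 252 other values, for the 10 enzymes singly and for 2-fold counts in lists, 26 moved beyond those limits. By the brightest probe set, Mogat2 was the only enzyme 2-fold or more apart, and it kept its sign. The dimmer probe set of Gpam was 2.49-fold lower. Signs of the single genes in the other lists were not followed. Smaller differences of the enzymes did change sign: Lpin2 was -0.20 with the mean of probe sets and Agpat3 -0.29 with plain probe sets only. No paired analysis was possible because each diet had 1 array, and leaving out an array was not possible for the same reason. Without detection calls, signal over background is known only through the floor.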
